A study of Mus musculus with 31 samples.

Results

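Leukocytes from the circulation of C57BL/6J males, 20 to 30 weeks old, were profiled on Illumina mouse BeadChip arrays after lipopolysaccharide (LPS). The comparison is between mice given LPS together with IVIg, which is pooled IgG prepared for intravenous use (3 arrays), and mice given LPS together with vehicle (3 arrays). These 6 arrays belong to a series of 31 that also holds liver, kidney and a modified IVIg, and the 2 blood arrays with modified IVIg were not used. No mouse without LPS was measured, so every value is a difference between IVIg and vehicle under LPS. The dose, the time after LPS and the way blood was drawn are not given in the sources used here. Arrays of a group were taken as replicates. Nothing in the labels says that they came from separate mice, so p values measure only the spread between these samples, which may in part be technical.

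Probes entered the comparison if at least 3 of the 6 arrays gave them a detection p below 0.01, which left 4064 of 25697 probes (15.8%). At that limit 611 probes were detected on exactly 3 arrays and 618 on exactly 2. With the kept probe of highest mean for each gene they gave 3487 features, 3229 of them with a gene symbol. A level below is the log2 of the background-corrected, quantile-normalised bead signal of that gene's probe, and a log2 difference is the mean level with IVIg minus the mean level with vehicle. Levels of different genes come from different probes and cannot be ranked against each other.

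LPS, a component of the outer membrane of Gram-negative bacteria, is handed by Cd14 to the receptor Tlr4 with its partner Md-2 (Ly96) on monocytes, macrophages and neutrophils. Separate adaptor routes lead from this receptor to NF-kB, which drives cytokine, chemokine and feedback genes, and to interferon-regulatory factors, which start the type I interferon programme. IgG acts on the same cells through Fc gamma receptors: Fcgr1, Fcgr3 and Fcgr4 signal through the shared gamma chain Fcer1g, Fcgr2b is the inhibitory receptor, and the neonatal receptor Fcgrt, which pairs with B2m, protects IgG from breakdown. The question that the comparison addresses is whether IVIg alters the transcripts of circulating cells during the response to LPS.

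With limma, 0 of 3487 features (0%) passed at a Benjamini-Hochberg adjusted p of 0.05, and the lowest adjusted p was 0.999. At an unadjusted p under 0.05 there were 31 features, 16 higher and 15 lower with IVIg, and the lowest unadjusted p was 0.00356. The median log2 difference over all features was −0.003, with quartiles of −0.27 and 0.27, and 1730 features were higher and 1757 lower. The standard error of a log2 difference had a median of 0.4. Its unadjusted 95% interval reached 0.89 to either side in the median, so most smaller changes could not be told from the spread between arrays. Larger ones did not pass after adjustment either: 21 features had a log2 difference above 1 and 32 one below −1. In 117 features (3.36%) all IVIg arrays lay above all vehicle arrays, and in 46 (1.32%) all lay below. A p that misses the threshold does not show that the groups were alike.

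The arrays of a group differed from each other. The share of probes detected was 11.1%, 16.3% and 14.2% on IVIg replicates 1, 2 and 3, against 17.8%, 18.7% and 13.2% on vehicle replicates 1, 2 and 3. The group means, 13.9 ± 2.62% with IVIg and 16.6 ± 2.95% with vehicle (SD, n = 3 each), did not differ beyond that spread (exact permutation test, two-sided, p = 0.3; the smallest p these groups allow is 0.1). Of the features tested, 828 were detected on more vehicle arrays than IVIg arrays and 175 on more IVIg arrays. In a principal component analysis the first component, with 57.8% of the variance, set IVIg replicate 2 and vehicle replicate 2 apart from the other 4 arrays, and the second, with 23.3%, set vehicle replicate 1 apart. Both splits cut across the treatment. Many list medians and some gene differences are therefore also given without 1 of these arrays. A gene difference shown without such a value can still rest on 1 array.

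The labelled cell type was checked against its defining markers. Of 9 neutrophil markers on the array 8 were kept, among them S100a8 and S100a9, the subunits of calprotectin, which were detected on all 6 arrays. Lymphocyte markers were thinner: Cd79a and Cd79b of the B cell receptor and Cd3e and Cd3d of the T cell receptor were kept, Ms4a1 and Cd3g were detected on no array, and of 4 NK cell markers only Nkg7 was kept. Of the monocyte markers, Ccr2 and Cx3cr1 were detected on none and F13a1, which platelets also carry, on all 6. The RNA also held red cell and platelet transcripts, with all 3 erythroid and all 4 platelet markers detected on every array. Alas2, the haem synthesis enzyme of red cell precursors, and Hba-a1, alpha globin, stood at 15.3 to 15.82, where 15.82 is the highest level on every array after normalisation, so their probes leave little room for a difference. The hepatocyte markers Alb, Apoa1 and Ttr were detected on 0 arrays.

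Cytokine and chemokine genes were mostly lower with IVIg, none past the threshold. Of 19 measured members 16 were lower and 3 higher with IVIg, with a median log2 difference of −0.63 beside −0.003 for all features, and 0 passed. Ccl7, which draws monocytes, had levels of 4.84, 6.44 and 5.45 on IVIg arrays, against 7.58, 6.61 and 6.59 on vehicle arrays. All IVIg arrays lay below all vehicle arrays for this gene, and 1 IVIg array detected it against 3 vehicle arrays. Its log2 difference was −1.35 ± 0.48 (SE; unadjusted p = 0.0201, adjusted p = 0.999 in limma). Cxcl1, which attracts neutrophils, had 5.47, 8.10 and 6.90 with IVIg, against 7.56, 8.54 and 8.48 with vehicle, a log2 difference of −1.37 ± 0.62. Here IVIg replicate 2 lay above vehicle replicate 1 and the other 2 IVIg arrays were the lowest of the 6.

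Ccl5, a chemokine of T cells and platelets, was at 9.71, 10.33 and 10.24 with IVIg and at 10.64, 11.06 and 10.48 with vehicle, again without overlap (log2 difference −0.63 ± 0.34). Ccl7 and Ccl5 were the 2 of the 19 members with all IVIg arrays below, beside 1.32% of all features. Ccl12, a mouse ligand of the monocyte receptor Ccr2, was at 6.03, 7.41 and 7.19 with IVIg, against 7.83, 9.75 and 6.79 with vehicle (−1.25 ± 0.70), and its groups overlapped because vehicle replicate 3 was low. Il1b, the inflammasome-activated cytokine, was at 9.06, 10.01 and 9.22 with IVIg, against 9.58, 11.65 and 9.5 with vehicle (−0.81 ± 0.59). Vehicle replicate 2 gave the highest level of Ccl5, Ccl12 and Il1b. Across all settings run, Il1b ranged from −1.2 to −0.11 and Ccl12 from −1.92 to −0.26. Without that array the median of the list was −0.27, and without IVIg replicate 2 it was −1.0. In the quantile-normalised signals without background correction the list's median was −0.38 and in the authors' values −0.32. The weakest median of the list under any setting run was −0.125. Tnf and Il10 were each detected on 1 array, a vehicle array in both cases, and Il6 and Ccl2 on none, so these LPS-induced cytokines were not tested.

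**Figure D1:**
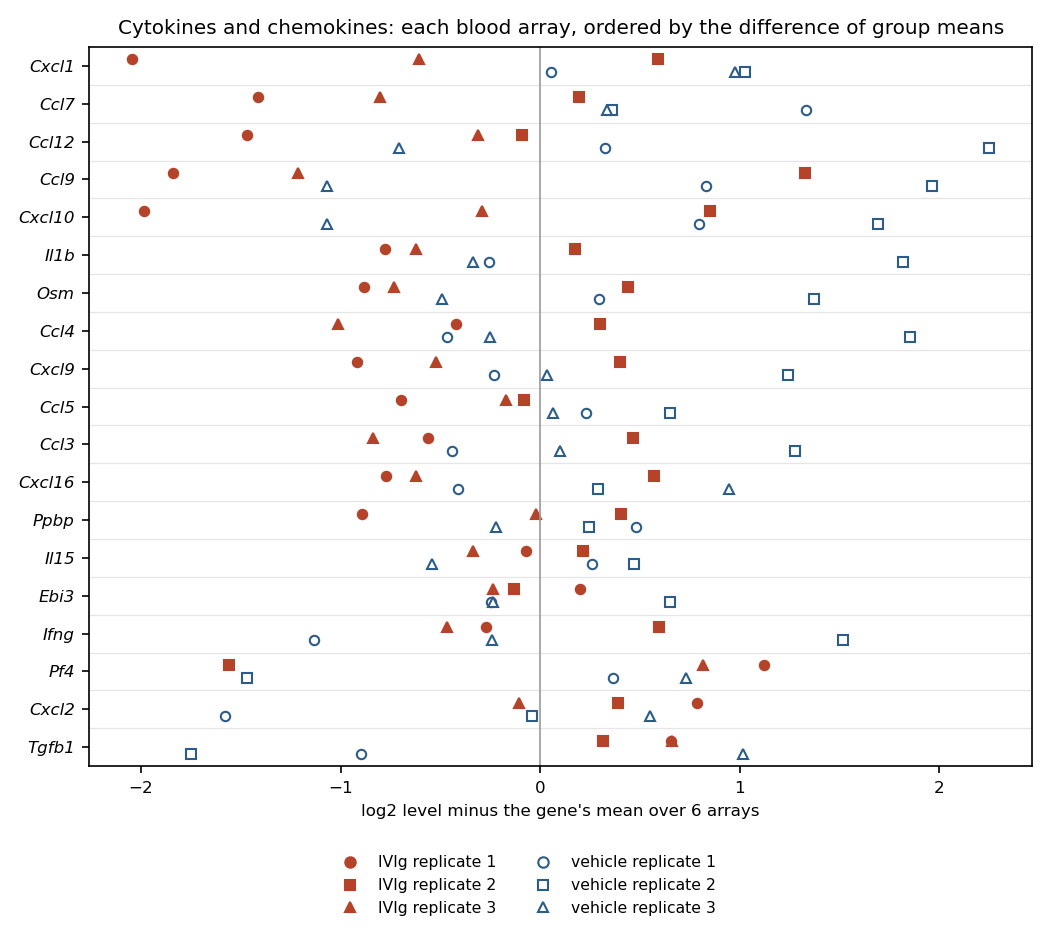
Levels of the 19 measured cytokine and chemokine genes on each blood array, as the log2 level minus that gene's own mean over the 6 arrays (x axis). Filled red symbols are IVIg arrays and open blue symbols vehicle arrays, the symbol shape gives the replicate number, and genes run from the lowest to the highest log2 difference. IVIg replicate 1 is lowest for Cxcl1 and Ccl7, and vehicle replicate 2 is highest for Ccl12 and Il1b.

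Further along the LPS pathway, 13 of 17 genes of the TLR4 receptor complex and its adaptors were lower and 4 higher with IVIg, with a median of −0.17 and 0 passing. The median was 0.265 without vehicle replicate 2, so its direction rested on that array. Ly86 (MD-1, the partner of the receptor Cd180) was at 5.07, 7.11 and 5.73 with IVIg, against 7.5, 7.36 and 6.04 with vehicle (−1.0 ± 0.58). Tab2, an adaptor that links Traf6 to the kinase Tak1, went the other way, with 11.37, 10.67 and 11.41 against 9.80, 9.57 and 11.13 (0.98 ± 0.47). In both genes vehicle replicate 3 lay among the IVIg arrays. The kinase Tbk1 had a log2 difference of −0.93 ± 0.56 and the RNA sensor Tlr13 one of −0.78 ± 0.46. Cd14, the LPS co-receptor, was at 8.41, 9.28 and 8.53 with IVIg and 8.55, 9.93 and 8.26 with vehicle (−0.17 ± 0.49), with the groups overlapping on both sides. Tlr4 itself was detected on 1 array, a vehicle one, and was not tested.

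NF-kB subunits and feedback inhibitors had a median of −0.08 (10 lower, 6 higher, 0 of 16 passing), which was 0.083 without vehicle replicate 2. Tnfaip3 (A20), the deubiquitinase that ends NF-kB signalling, was at 6.17, 6.50 and 6.77 with IVIg and at 7.63, 7.84 and 6.36 with vehicle (−0.79 ± 0.44). Nfkbib, an inhibitor of NF-kB, was at 7.15, 6.37 and 6.68 with IVIg and at 5.92, 5.98 and 6.52 with vehicle (0.59 ± 0.36). The 2 inhibitors pointed in opposite directions, and in each of them vehicle replicate 3 lay within the range of the IVIg arrays. Cyld, another deubiquitinase of the pathway, and Nfkbia, the main inhibitor of NF-kB, had log2 differences of −0.43 ± 0.35 and −0.37 ± 0.42.

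The inflammasome, pyroptosis and necroptosis genes had a median of −0.47 (9 of 11 lower, 0 passing). The initiator caspase Casp8 was at 5.69, 7.34 and 6.45 with IVIg, against 7.17, 8.13 and 6.52 with vehicle (−0.78 ± 0.53). Casp4 (caspase-11), which binds LPS inside the cell, was at 7.92, 9.39 and 8.81 with IVIg, against 9.24, 10.40 and 8.77 with vehicle (−0.76 ± 0.52), and a further kept probe of Casp4 gave 0.28. Vehicle replicate 2 was highest for both caspases, and without it the list's median was −0.035. Mefv (pyrin), an inflammasome sensor, had a log2 difference of −0.50 ± 0.36.

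Of 32 type I interferon-stimulated genes measured, 27 were lower and 5 higher, with a median of −0.22, 0 passing, and a range from −0.68 (Trim30a) to 0.68 (Zbp1, a sensor of Z-form nucleic acids, named after its value was seen). The median ran from −0.334 to −0.108 as single arrays were left out. Stat2, the interferon signal transducer, was at 5.32, 6.04 and 6.00 with IVIg, against 6.06, 6.66 and 6.29 with vehicle (−0.55 ± 0.36). It was the 1 gene of the 32 whose IVIg arrays all lay below the vehicle arrays, beside 1.32% of all features. Stat2 was detected on 2 IVIg arrays. Its levels on IVIg replicate 1 and on vehicle replicates 1 and 3 lay below 6.3, the lowest signal among that IVIg array's detected probes. Oas1g, of the family of antiviral oligoadenylate synthetases, was at 8.74, 9.26 and 8.97 with IVIg and 8.96, 9.91 and 9.69 with vehicle (−0.53 ± 0.37). The groups of Oas1g overlapped through vehicle replicate 1 alone. Trim30a, which dampens TLR signalling, had −0.68 ± 0.47 and Sp100, a nuclear body protein, −0.59 ± 0.43. Irf7, the transcription factor that amplifies type I interferon, was at 10.70, 11.20 and 11.46 with IVIg, against 10.90, 11.01 and 11.90 with vehicle (−0.15 ± 0.39).

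The interferon-gamma-induced GTPases and their regulator Irf1 had a median of −0.21 (10 of 12 lower, 0 passing), and −0.348 to −0.126 with 1 array left out. With the share of detected probes as a covariate the median was 0.073, so its direction turned under that setting. Gvin1, a very large inducible GTPase, was at 10.42, 10.10 and 10.45 with IVIg and at 11.02, 10.97 and 10.74 with vehicle, so that all IVIg arrays were below all vehicle arrays (−0.58 ± 0.31). It was the 1 member of 12 with such a separation, beside 1.32% of all features. Tgtp1, which attacks the vacuole of intracellular parasites, was at −0.64 ± 0.48, and Gbp3, a guanylate-binding protein, at −0.73 ± 0.64. Irf1 was at 10.11, 10.83 and 10.24 with IVIg, against 10.24, 11.97 and 9.95 with vehicle (−0.33 ± 0.53). For Irf1 the sign rested on vehicle replicate 2, without which the log2 difference was 0.31.

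Anti-inflammatory and negative feedback genes had a median of −0.32 (15 of 19 lower, 0 passing), and 0.158 without vehicle replicate 2. Lilrb4a, an inhibitory receptor of myeloid cells, was at 7.05, 6.71 and 7.51 with IVIg and at 8.83, 7.93 and 7.21 with vehicle (−0.90 ± 0.46). Tgfb1, a suppressive cytokine that platelets also store, was at 8.64, 8.31 and 8.65 with IVIg and at 7.09, 6.24 and 9.01 with vehicle (1.09 ± 0.62). In both genes vehicle replicates 1 and 2 lay on one side of the IVIg arrays and vehicle replicate 3 did not. Arg2, a mitochondrial arginase, and Cish, a SOCS-family feedback inhibitor of cytokine receptors, had log2 differences of −0.64 ± 0.43 and −0.48 ± 0.39. Il1rn, the antagonist of the interleukin-1 receptor, was at 9.80, 10.03 and 9.44 with IVIg and at 9.62, 11 and 9.57 with vehicle (−0.31 ± 0.44), and at 0.16 without vehicle replicate 2.

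The receptors through which IgG is recognised were spread on both sides of zero. Of 15 genes of Fc receptors and IgG handling 7 were higher and 8 lower with IVIg, the median was −0.04 and 0 passed. The inhibitory receptor Fcgr2b was at 6.01, 8.46 and 6.95 with IVIg, against 8.61, 9.28 and 6.65 with vehicle (−1.04 ± 0.76). The low-affinity activating receptor Fcgr3 was at 7.12, 7.66 and 7.17 with IVIg, against 7.82, 8.63 and 7.5 with vehicle (−0.67 ± 0.39). Fcgr4, an activating receptor of neutrophils and monocytes, was at 12.85, 12.62 and 12.22 with IVIg, against 11.22, 13.22 and 12.20 with vehicle (0.35 ± 0.50). In all 3 receptors the vehicle arrays spread more widely than the IVIg arrays or about as widely, and the groups overlapped. Without vehicle replicate 1, Fcgr4 was at −0.15.

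The high-affinity receptor Fcgr1 was detected on 1 IVIg array and 2 vehicle arrays and had a log2 difference of −0.40 ± 0.36. The signalling chain Fcer1g was at 12.40, 12.74 and 12.40 with IVIg, against 12.09, 13.21 and 12.61 with vehicle (−0.13 ± 0.37; 0.16 without vehicle replicate 2). Fcmr, the IgM receptor of B cells, was at 6.86, 7.43 and 7.60 with IVIg, against 6.99, 6.2 and 6.83 with vehicle (0.62 ± 0.37). Its IVIg arrays were the higher ones except for an overlap of IVIg replicate 1 with vehicle replicate 1. B2m, the light chain of Fcgrt and of MHC class I, was at −0.79 ± 0.52. Fcgrt was detected on 1 array, a vehicle one, and was not tested. The median of the list was −0.25 without vehicle replicate 1 and 0.108 without vehicle replicate 2, so it had no settled direction.

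**Figure D2:**
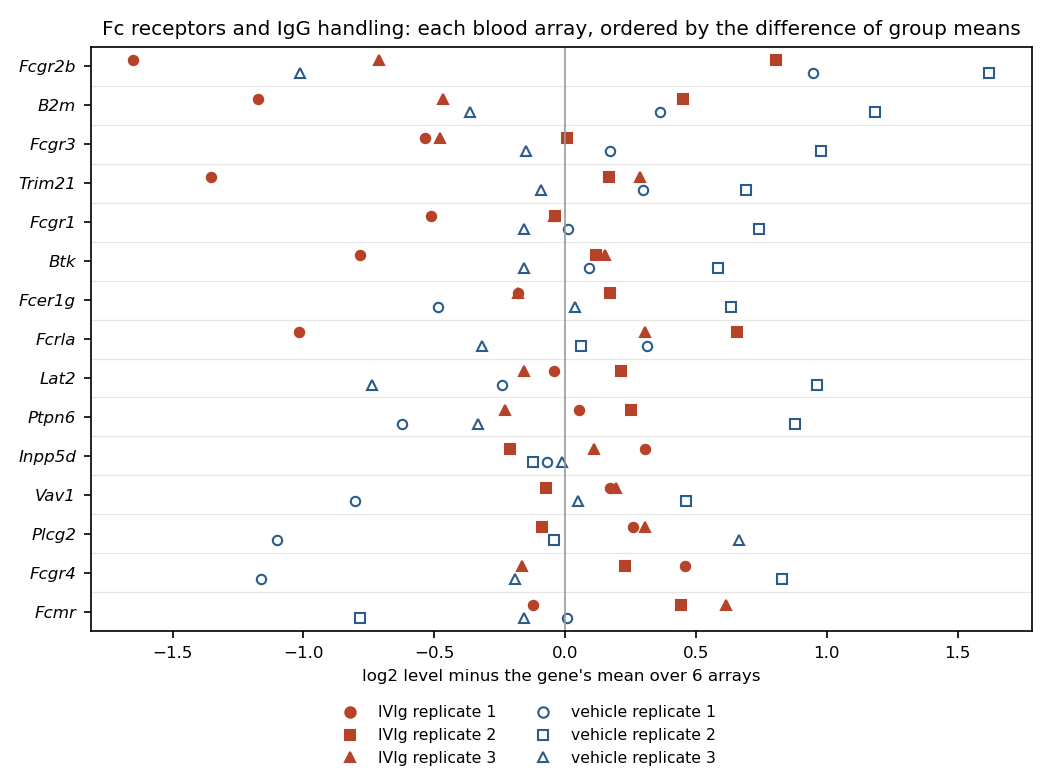
Levels of the 15 measured genes of Fc receptors and IgG handling on each blood array, as the log2 level minus that gene's own mean over the 6 arrays (x axis). Filled red symbols are IVIg arrays, open blue symbols vehicle arrays and the shape gives the replicate number, with genes ordered from Fcgr2b (log2 difference −1.04) to Fcmr (0.62). The groups overlap in every row.

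MHC class II presentation genes, expressed by B cells, dendritic cells and monocytes, were evenly split, with 5 higher and 5 lower, a median of −0.03 and 0 of 10 passing. Cd74, the invariant chain, was at 8.44, 10.61 and 9.54 with IVIg, against 9.56, 9.12 and 8.58 with vehicle (0.44 ± 0.54), and H2-Ab1, a class II beta chain, at 8.36, 10.43 and 9.28, against 9.23, 9.15 and 8.24 (0.48 ± 0.54). Both had IVIg replicate 1 low and IVIg replicate 2 high, and both were slightly below zero without IVIg replicate 2 (Cd74 at −0.10, H2-Ab1 at −0.06). The protease Lgmn had a log2 difference of −0.76 ± 0.41, and Marchf1, the ubiquitin ligase that removes class II from the surface, one of −0.45 ± 0.47. The median of the list was 0.291 without vehicle replicate 1.

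In bulk RNA of this kind, fewer cells of a type and less RNA per cell cannot be told apart. Neutrophil granule genes had mean levels of 10.10, 9.73 and 10.10 on IVIg arrays, against 9.76, 10.53 and 10.18 on vehicle arrays. Of 21 measured, 15 were lower with IVIg, with a median of −0.20 and 0 passing, and the median was 0.229 without vehicle replicate 2. S100a8 was at 13.85, 14.36 and 14.17 with IVIg, against 14.13, 15.54 and 13.94 with vehicle (−0.41 ± 0.46; 0.09 without vehicle replicate 2). Its partner S100a9 was at 14.02, 13.40 and 13.87, against 13.33, 14.28 and 13.70 (−0.01 ± 0.37; 0.24 without that array). Both calprotectin genes were highest on vehicle replicate 2, and their groups overlapped. Ngp, a granule protein of immature neutrophils, was at −1.01 ± 0.70, Camp (cathelicidin) at −0.50 ± 0.44 and the cystatin Stfa1 at 0.34 ± 0.43.

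Of the neutrophil surface and activation genes 18 of 21 were lower, with a median of −0.25 and 0 passing, and a median of 0.127 without vehicle replicate 2. Their mean levels were 8.58, 8.70 and 8.52 on IVIg arrays and 8.55, 9.38 and 8.60 on vehicle arrays, so vehicle replicate 2 alone stood above. Cxcr2, the receptor for Cxcl1, had a log2 difference of −0.49 ± 0.40 and Csf3r, the receptor for granulocyte colony-stimulating factor, one of −0.36 ± 0.33. Clec4e (Mincle), a lectin receptor induced by LPS, was at −0.59 ± 0.46. The tetraspanin Cd9, which platelets carry in quantity, was at 9.16, 10.95 and 9.99 with IVIg and 11.65, 11.22 and 10.02 with vehicle (−0.93 ± 0.56).

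Monocyte and macrophage genes had a median of −0.19 (10 of 14 lower, 0 passing), which stayed between −0.437 and −0.173 as single arrays were left out. Ly6c1, of the Ly6c family that marks inflammatory monocytes, was at 7.13, 8.88 and 7.92 with IVIg, against 8.48, 10.15 and 8.20 with vehicle (−0.96 ± 0.60). Ms4a6d, a macrophage membrane protein, was at 6.88, 9.29 and 7.57 with IVIg, against 9.33, 11.53 and 7.16 with vehicle (−1.43 ± 1.00). Replicate 2 was the highest array of its own group in both genes. The protease Ctsc and the phospholipase-family member Pld4 had log2 differences of −0.85 ± 0.70 and −0.43 ± 0.43.

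B cell and T cell lists lay above the median of all features. Of 10 B cell genes 7 were higher with a median of 0.17, and of 9 T cell genes 7 were higher with a median of 0.32, while 0 of either passed. With arrays scaled by their medians only, the median of all features was −0.416, and the B and T cell lists were at −0.17 and −0.12, which is 0.25 and 0.29 above it. Cd79a was at 6.39, 6.53 and 6.92 with IVIg, against 6.41, 5.91 and 6.37 with vehicle (0.38 ± 0.33), and overlapped only where IVIg replicate 1 lay just below vehicle replicate 1. Xbp1, the transcription factor of plasma cells, pointed the other way at −0.59 ± 0.45, and Cxcr5, the follicular homing receptor, was at 0.37 ± 0.35.

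Among the T cell genes Dgka, a diacylglycerol kinase that restrains receptor signalling, was at 7.39, 7.33 and 7.33 with IVIg, against 6.37, 6.76 and 7.30 with vehicle (0.54 ± 0.35). It was the 1 member of 9 whose IVIg arrays all lay above the vehicle arrays, beside 3.36% of all features, by a margin set by vehicle replicate 3. Gimap6, Cd8b1 and the chromatin organiser Satb1 had log2 differences of 0.41 ± 0.35, 0.35 ± 0.37 and 0.32 ± 0.37. Cd3e was at 7.05, 5.24 and 5.53 with IVIg, against 5.30, 5.51 and 6.42 with vehicle (0.20 ± 0.53), and at −0.38 without IVIg replicate 1. The T cell median itself was 0.022 without vehicle replicate 1.

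Platelet and megakaryocyte genes were mostly higher with IVIg, none past the threshold. Of 22 measured, 18 were higher and 4 lower with IVIg, with a median of 0.40 and 0 passing, and under scaling by array medians the list was at −0.04, which is 0.37 above all features there. The mean level of the list was 10.93, 10.09 and 10.93 on IVIg arrays, against 10.46, 9.41 and 10.89 on vehicle arrays. Replicate 2 was the lowest array in each group. The median was 0.114 without vehicle replicate 2 and 0.934 without IVIg replicate 2.

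Selp (P-selectin), stored in platelet alpha granules, was at 9.92, 10.15 and 10.29 with IVIg, against 8.35, 7.60 and 10.46 with vehicle (1.31 ± 0.64, unadjusted p = 0.0715). Itga2b, the integrin chain of the fibrinogen receptor, was at 12.81, 12.72 and 12.71, against 11.42, 10.90 and 12.86 (1.02 ± 0.49). Gp5, of the von Willebrand factor receptor complex, was at 13.61, 12.44 and 13.12, against 11.78, 11.25 and 13.17 (0.99 ± 0.53). In all 3 genes the IVIg arrays lay above vehicle replicates 1 and 2, and vehicle replicate 3 lay above at least 1 of them. Tuba8, a tubulin isotype of platelets, was at 0.84 ± 0.41. Pf4, the platelet chemokine, did not follow them, with 14.46, 11.78 and 14.15 with IVIg, against 13.70, 11.87 and 14.07 with vehicle (0.25 ± 0.78), and it was at −0.43 without vehicle replicate 2. The 4 lower members of the list included Cd9, the lowest at −0.93. The platelet marker Ppbp was at 11.82, 13.12 and 12.7 with IVIg, against 13.2, 12.96 and 12.5 with vehicle. Gp9, another marker, was at 11.69, 11.82 and 11.81, against 11.61, 11.54 and 11.69.

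Erythroid and reticulocyte genes were evenly split, 15 higher and 14 lower, with a median of 0.02 and 0 of 29 passing, and −0.125 without vehicle replicate 2. Tfrc, the transferrin receptor of iron-importing red cell precursors, was at 6.2, 7.5 and 7.36 with IVIg, against 8.75, 8.62 and 7.35 with vehicle (−1.22 ± 0.50, unadjusted p = 0.037), and its other kept probe gave −1.46. Sptb, the spectrin beta chain of the red cell skeleton, was at 8.24, 7.36 and 7.66 with IVIg, against 6.61, 5.99 and 7.85 with vehicle (0.94 ± 0.50). In both, vehicle replicate 3 sat with the IVIg arrays. Tmcc2 and the mitochondrial carrier Slc25a39 had log2 differences of −0.64 ± 0.55 and 0.42 ± 0.37. The globin gene Hba-a1 was at 0.15 ± 0.32 and Alas2 at 0.08 ± 0.30, both at the top of the scale.

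Of 5 measured eosinophil, basophil and mast cell genes 4 were lower, with a median of −0.06 and 0 passing. Prss34, a protease of basophils and mast cells, was at 5.31, 5.67 and 5.99 with IVIg, against 6.62, 7.48 and 6.11 with vehicle (−1.08 ± 0.42, unadjusted p = 0.0296), with all IVIg arrays below the vehicle arrays. It was the 1 member of 5 with such a separation, beside 1.32% of all features. Prss34 was detected on 2 IVIg arrays. Its levels on IVIg replicate 1 (5.31) and vehicle replicate 3 (6.11) lay below 6.3, the lowest signal among that IVIg array's detected probes. Prg2, the eosinophil major basic protein, was at 5.21, 8.01 and 8.48 with IVIg, against 7.17, 10.24 and 8.62 with vehicle (−1.45 ± 0.94). The cytokine Il13 was at 0.56 ± 0.40 and the transcription factor Gata2 at −0.06 ± 0.39. The median was 0.055 without IVIg replicate 3.

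**Figure D3:**
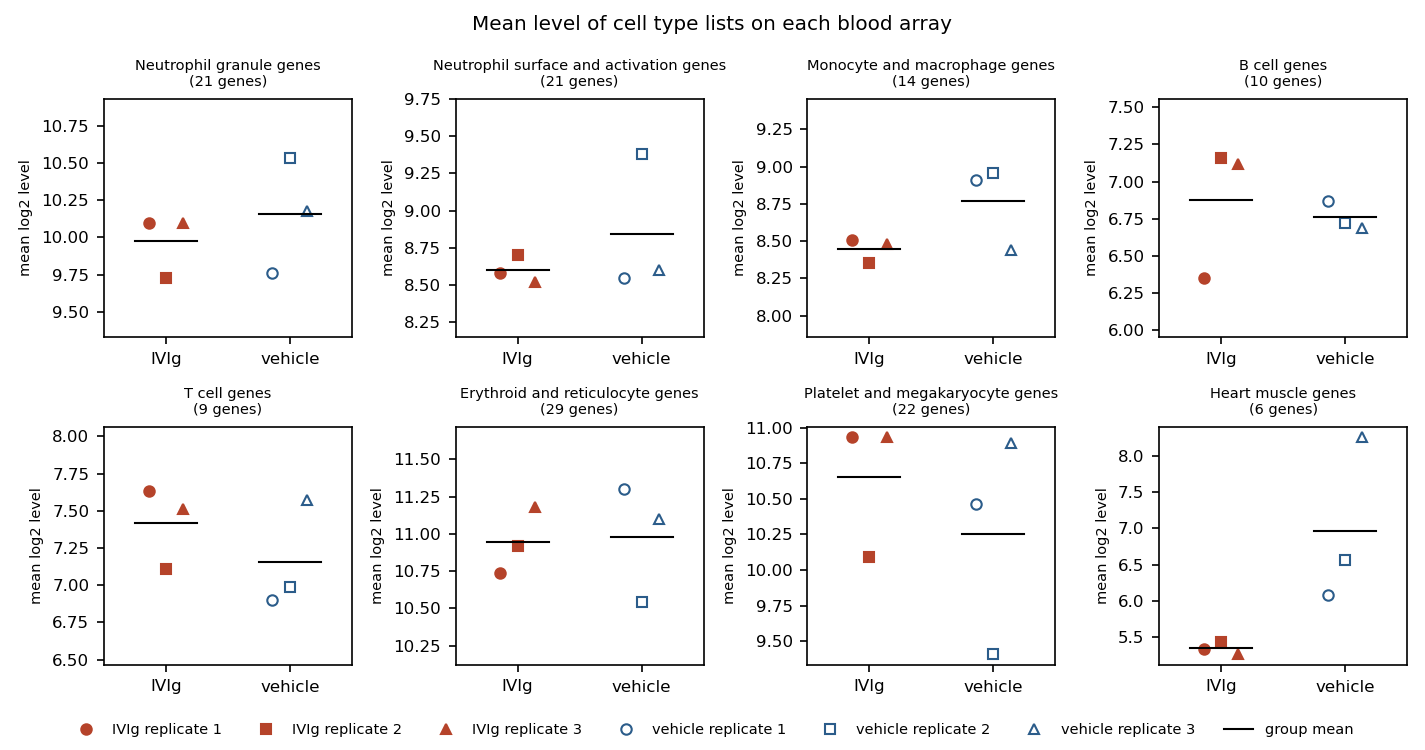
Mean log2 level of the measured genes of 8 cell type lists (y axis, each panel with its own range) on each blood array, with IVIg left of vehicle. Symbol shape gives the replicate number and the black line the group mean. Vehicle replicate 2 stands above the other arrays for both neutrophil lists and below them for platelet genes, and vehicle replicate 3 stands above them for heart muscle genes.

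The lowest statistics of the whole comparison belonged to genes of heart muscle. Myl3, a ventricular myosin light chain, was at 5.24, 5.47 and 5.08 with IVIg, against 6.53, 7.19 and 9.17 with vehicle (fitted log2 difference −2.36 ± 0.61, unadjusted p = 0.00356, adjusted p = 0.999 in limma). Myl2, the other ventricular light chain, was at 4.99, 5.52 and 4.71, against 6.02, 6.73 and 8.93 (−2.16 ± 0.67). No IVIg array detected either gene and all 3 vehicle arrays did. Bounds were set against the detection floor of each IVIg array (the lowest signal among its detected probes, or the probe's own signal where higher). By group means, Myl3 was at least 3.29-fold and Myl2 at least 2.49-fold lower with IVIg. Vehicle replicate 3 (9.17 and 8.93) raised the vehicle mean of both. For Myl2, vehicle replicate 1 (6.02) lay below the floor of IVIg replicate 1 (6.3), so the bound does not hold array by array. Actc1, cardiac alpha actin, was at 4.57, 4.63 and 4.73 with IVIg, against 5.69, 5.51 and 6.35 with vehicle (−1.20 ± 0.34). It too was detected on 0 IVIg arrays and 3 vehicle arrays, and its bound is under 1, so no fold is given.

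Cox6a2, the muscle form of a cytochrome c oxidase subunit, was at 4.95, 5.91 and 4.78 with IVIg, against 5.82, 7.08 and 8.93 with vehicle (−2.06 ± 0.71), and Mb, myoglobin, at 6.62, 5.24 and 5.91, against 6.71, 7.0 and 9.93 (−1.96 ± 0.79). Vehicle replicate 3 was the highest array for all 5 genes. Of 28 heart muscle genes listed, 27 were on the array and 6 were kept, and the remaining kept member, Myl4, an atrial light chain named after its value was seen, had a log2 difference of −0.03. The list was drawn up after Myl3 and Myl2 had been seen among the lowest statistics, so its median of −2.01 describes these arrays and supports nothing else. Its mean level was 5.33, 5.43 and 5.26 on IVIg arrays, against 6.08, 6.56 and 8.26 on vehicle arrays. Without vehicle replicate 3 the median was −1.13, in the authors' values it was −0.879, and with no filter on detection, where undetected members enter, it was −0.105. Of the members that failed the filter, Cox7a1 and Cox8b were each detected on 2 vehicle arrays and no IVIg array, Myh6, Tnnc1 and Csrp3 on 1 vehicle array each, and Nppa, Tnni3, Ckm and Ttn on 0 arrays. A list of 16 skeletal muscle genes, also added after the data were seen, had 1 kept member. This was Tnnt1, higher with IVIg (0.87 ± 0.56) with overlapping groups. Of its members that failed the filter, Acta1, Tnni2, Atp2a1 and Pvalb were each detected on 1 IVIg array and 0 vehicle arrays. The part that RNA of another tissue has in the values of both lists was not tested.

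The 12 lowest statistics also held genes that are not in the heart muscle list. Swt1, an RNA endonuclease, was at 5.66, 6.51 and 6.27 with IVIg, against 7.86, 7.57 and 6.68 with vehicle (−1.23 ± 0.41). Ppp2r2d, a regulatory subunit of protein phosphatase 2A, was at 5.19, 5.40 and 4.82, against 5.84, 6.18 and 6.00, and with no IVIg array detecting it was at least 1.07-fold lower. Lpl, lipoprotein lipase, which heart, fat and macrophages make, was likewise undetected with IVIg, at 4.71, 5.47 and 4.74 against 5.46, 6.61 and 6.02, and at least 1.09-fold lower. Ppp2r2d and Lpl were thus below detection with IVIg, while Swt1 was detected on 2 IVIg arrays. The bounds of Ppp2r2d and Lpl also compare group means and do not hold array by array. All vehicle levels of Ppp2r2d lay below the floor of IVIg replicate 1 (6.3). For Lpl, vehicle replicate 1 (5.46) lay below the floor of every IVIg array (6.3, 5.59 and 5.84). Parp12, an interferon-induced ADP-ribosyltransferase, had a log2 difference of −0.91 ± 0.37 and the predicted gene Gm8909 one of −1.01 ± 0.37. Among these 5 genes only the groups of Lpl overlapped. Genes picked by a low statistic tend to have separated groups, and 1.32% of all features had all IVIg arrays below.

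At the other end, Zbtb7a, a transcription factor of lymphoid and red cell development, had the highest statistic, with 6.88, 6.52 and 6.47 with IVIg against 5.23, 5.85 and 5.92 with vehicle (0.95 ± 0.34, unadjusted p = 0.0209). Smtn, a cytoskeletal protein of smooth muscle, was at 7.67, 7.27 and 7.56, against 6.46, 5.51 and 7.04 (1.17 ± 0.43). Tbl1x, a subunit of the NCoR corepressor complex, was at 6.65, 6.45 and 6.93, against 6.07, 5.28 and 5.85 (0.94 ± 0.35). All IVIg arrays lay above all vehicle arrays in these 3 genes and in 8 of the other 9 of the 12 highest statistics. Those 8, with log2 differences from 0.80 to 0.92, were Mvb12b, Cox10 (an enzyme of haem A synthesis), Mak16 (a ribosome assembly factor), Zfp362, Kpna6 (an importin), Cnksr2, Ppp3ca (the catalytic subunit of calcineurin) and Csnk1e (casein kinase 1 epsilon). Genes picked by a high statistic tend to have separated groups, and 3.36% of all features had all IVIg arrays above. A further kept probe of Mak16 gave −0.02. Nlrx1, a mitochondrial NLR protein that limits antiviral signalling, had the largest difference of the 12, with 10.89, 9.94 and 10.70 with IVIg, against 8.93, 8.01 and 10.44 with vehicle (1.38 ± 0.59), and its groups overlapped. Its 3 kept probes ran from 0.35 to 1.38.

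**Figure D4:**
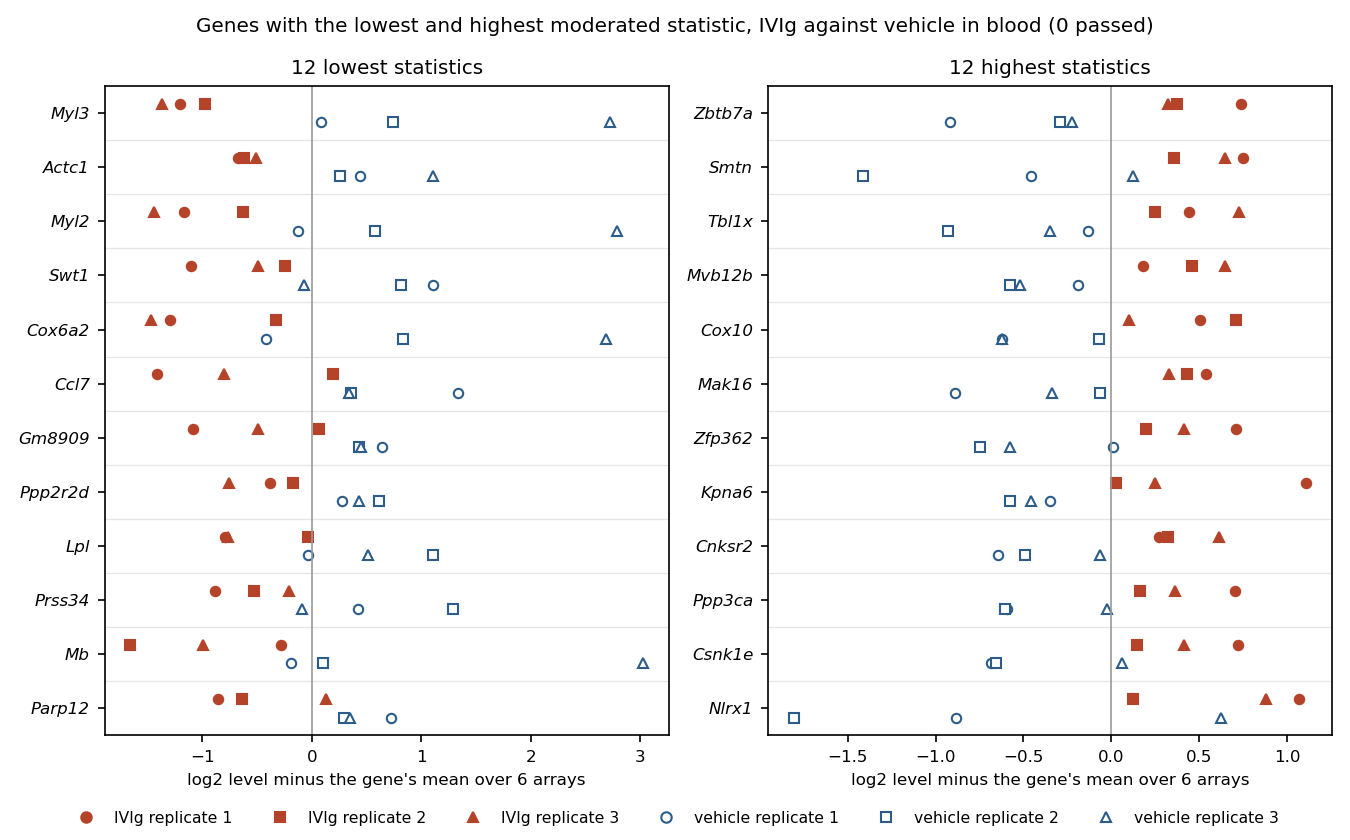
Levels on each blood array of the genes with the 12 lowest (left) and 12 highest (right) moderated statistics, as the log2 level minus that gene's own mean over the 6 arrays (x axis), with IVIg arrays as filled red symbols above vehicle arrays as open blue symbols in each row. None passed after adjustment. Vehicle replicate 3 is far above the other arrays for Myl3, Myl2, Cox6a2 and Mb.

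Lists of general cell functions had small medians. Of 50 ribosomal protein genes 34 were lower with a median of −0.11, and of 54 genes of the mitochondrial respiratory chain 37 were lower with a median of −0.17, with 0 passing in either. The ribosomal median was −0.02 without vehicle replicate 2, −0.194 without vehicle replicate 1 and 0.034 with the share of detected probes as a covariate. Rpl27 was at 7.91, 8.30 and 8.20 with IVIg, against 8.59, 8.87 and 8.33 with vehicle (−0.46 ± 0.32), and Ndufa5, of complex I, at 5.29, 6.33 and 6.34, against 6.92, 6.85 and 6.43 (−0.74 ± 0.39). Neither pair of groups overlapped. All IVIg arrays lay below in 2 of the 50 ribosomal and 2 of the 54 respiratory chain genes, beside 1.32% of all features. The differences of Rps2, Rps7 and Rpl27a were −0.79 ± 0.54, −0.70 ± 0.55 and −0.58 ± 0.38. In the respiratory chain Ndufa6 was at −0.59 ± 0.39, Uqcrc2 (complex III) at −0.54 ± 0.34 and Atp5l (ATP synthase) at −0.43 ± 0.32. The respiratory chain median stayed between −0.229 and −0.093 with 1 array left out.

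Genes of endoplasmic reticulum stress had their median at −0.24 (7 of 9 lower, 0 passing), and between −0.486 and −0.154 with 1 array left out. Atf4, a transcription factor of the integrated stress response, was at 5.07, 5.6 and 5.87 with IVIg, against 6.30, 6.24 and 6.16 with vehicle (−0.72 ± 0.34, unadjusted p = 0.0607). The chaperone Hsp90b1, which folds Toll-like receptors, was at 7.42, 7.39 and 7.07, against 7.71, 8.63 and 7.59 (−0.68 ± 0.38). In both genes all IVIg arrays lay below all vehicle arrays, 2 of the 9 members, beside 1.32% of all features. Atf4 was detected on 2 IVIg arrays and 3 vehicle arrays. Its level on IVIg replicate 1 (5.07) lay below that array's detection floor of 6.3, as did vehicle replicates 2 and 3 (6.24 and 6.16). The separation of Atf4 from that array is therefore not settled. Pdia3, a disulfide isomerase that also loads MHC class I, was at −1.04 ± 0.62.

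Leaving out the muscle lists, which were added after the data were seen, 38 lists had at least 5 measured members, of which 29 had a median below 0 and 9 above, and 0 members of any list passed. Without vehicle replicate 2 the number below 0 was 18, and with the share of detected probes as a covariate it was 15. With that covariate the median of the interferon-gamma GTPases was 0.073 and that of the type I interferon-stimulated genes −0.033. Vehicle replicate 2 had the highest share of detected probes, 18.7%, and the part that this share has in the medians was not tested further. Among the lists described, the respiratory chain, endoplasmic reticulum stress, monocyte and type I interferon medians stayed below 0 with any 1 array left out. The interferon-gamma GTPase, cytokine, inflammasome and ribosomal medians did so too, and the B cell, T cell and platelet medians stayed above 0. The heart muscle median also stayed below 0, but its list was drawn up after Myl3 and Myl2 were seen among the lowest statistics. Myl3, Myl2 and Actc1 were kept through vehicle arrays alone, a choice made on all arrays, so leaving arrays out cannot test that sign.

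**Figure D5:**
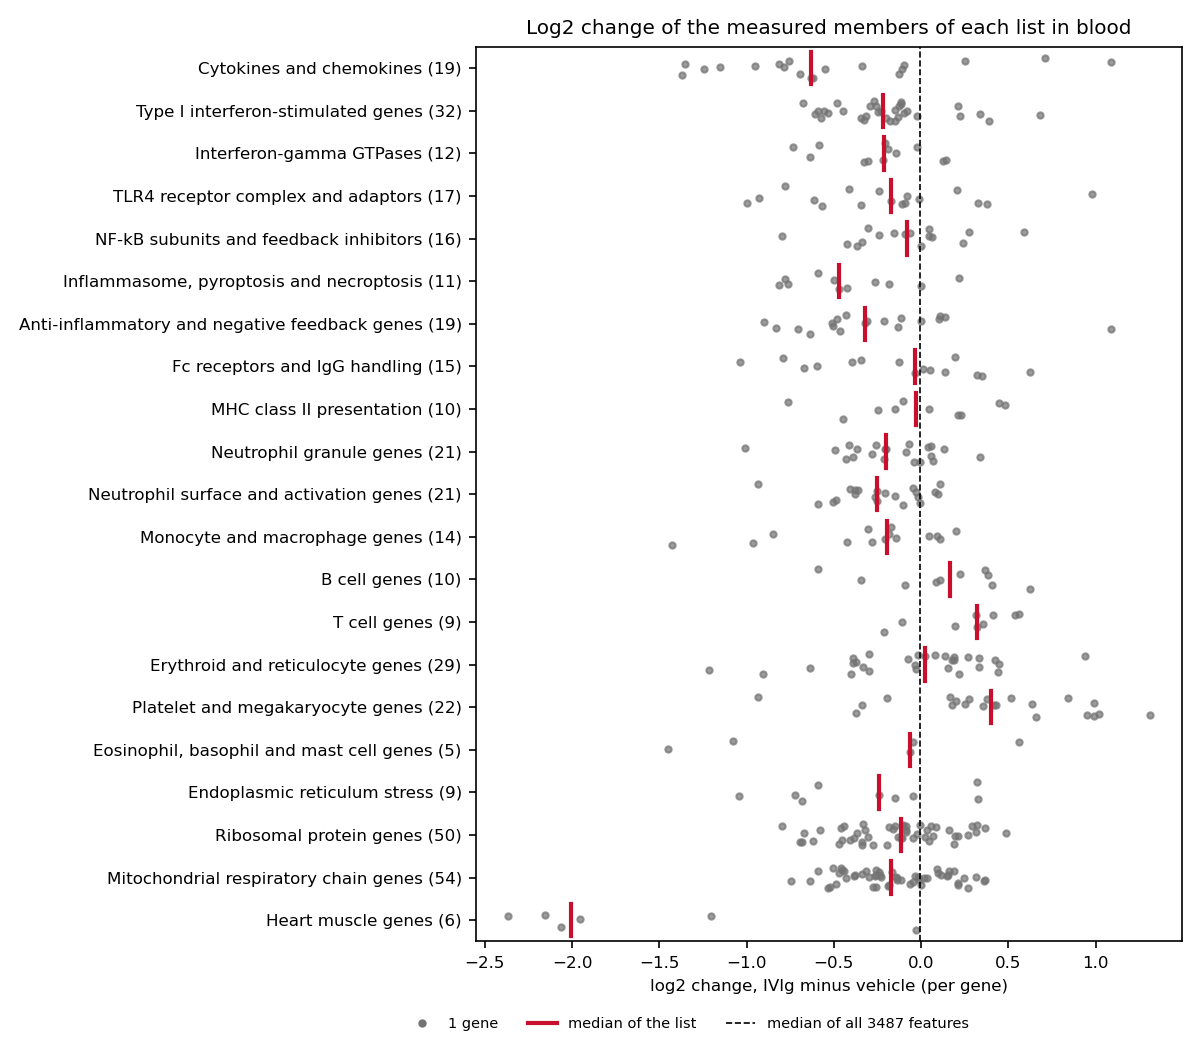
Log2 difference (IVIg minus vehicle, x axis) of every measured member of 21 gene lists, with the number of members in parentheses, the list median as a red bar and the median of all 3487 features as a dashed line. Medians run from −2.01 for heart muscle genes, a list chosen after its leading genes were seen, to 0.40 for platelet genes. Under scaling by array medians the B cell, T cell, erythroid and platelet medians are below 0 (−0.17, −0.12, −0.30 and −0.04) but above the median of all features there, −0.416.

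The blood differences were set against those of liver (4 IVIg and 4 vehicle arrays) and kidney (4 IVIg and 3 vehicle arrays) in the same series. Of 2987 features kept in blood and liver 0 (0%) had a difference that itself differed between the organs past the threshold in limma (57 at an unadjusted p under 0.05, lowest adjusted p = 1), and of 3113 kept in blood and kidney 0 (0%) did (23 unadjusted, lowest adjusted p = 0.995). Ppp2r2d had the lowest p against liver, but no IVIg blood array detected it, so its blood difference is known only as the bound above and no gap is given. Tbl1x had the lowest p against kidney, at 0.94 in blood and −0.23 in kidney, a gap of 1.18 ± 0.32. Cxcl1 was at −1.37 in blood, against −0.35 in liver and −0.91 in kidney, and Ccl7 at −1.35 in blood, against −0.35 in liver and −1.19 in kidney. Both chemokines were lower with IVIg in all 3 organs, with gaps inside their standard errors in kidney and of −1.02 ± 0.71 and −1.0 ± 0.71 in liver. Il1b was at −0.81 in blood, −0.28 in liver and 0.46 in kidney, and no gap passed.

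Over the 17 cytokine and chemokine genes kept in blood and liver the medians were −0.63 in blood and −0.26 in liver, and over the 16 kept in blood and kidney −0.66 in blood and −0.02 in kidney. The 30 interferon-stimulated genes shared with each organ had a median of −0.19 in blood, against −0.27 in liver and −0.11 in kidney. Platelet genes, 8 of them shared with each organ, were at 0.35 in blood, against −0.19 in liver and −0.13 in kidney. Ribosomal protein genes were lower in 34 of 50 cases in blood, against 13 of 50 in liver and 20 of 50 in kidney. A p was not computed for these medians and counts, and 0 of the genes in them passed the test of the difference. Blood arrays detected fewer probes (11.1% to 18.7%) than liver (31.6% to 33.9%) or kidney arrays (36.9% to 41%), so the organ comparison covers only genes that blood detected.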

How the data were processed

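RNA was labelled and hybridised to Illumina mouse BeadChips, 1 array per sample. For each array the deposited file gives a bead signal per probe, an intensity that the authors exported from GenomeStudio 1.9.0, per the submitters' processing notes. It is labelled as not normalised. The deposited detection p-value of each probe compares its signal with negative control beads, per the file headers. A second table by the authors is on the log2 scale and was normalised organ by organ, per the series text; the notes name lumi and limma without roles, and the method is not given in the sources used here.

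For the 6 blood arrays, neqc of limma 3.58.1 (offset 16, R 4.3.3) corrected the background and applied quantile normalisation. The kept probe with the highest mean stood for its gene, and 258 features had no symbol and were tested unnamed. In 473 genes several probes were kept, and in 143 of them the probes disagreed in sign. Gene symbols came from the platform annotation (23978 probes with 1 symbol, 0 with several, 1719 with none). Tests used lmFit and eBayes with Benjamini-Hochberg adjustment over all features. The script was tested on simulated data. Columns of 10 samples of the table were not used. Precision is limited by having 3 arrays in each blood group. Alternatives changed the normalisation, the detection filter, the choice of probe, array weights, the prior, covariates and the arrays included.

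Genes named are the 12 highest and 12 lowest moderated statistics, because fewer than 5 genes passed, up to 4 members by moderated statistic of each list described, and a fixed set of receptor, cytokine and marker genes. Of that set Ly6g, Csf1r and Hbb-b1 were not measured here, and Ncr1 and Alb were detected on 0 arrays. The lists and the comparison were chosen with earlier results of these data known. Of 40 lists 38 had at least 5 measured members, and lists of heart and skeletal muscle genes were added after the data were seen and are not in these counts. The labels do not say whether the replicate numbers pair the samples, and a check of the arrays did not settle it. The main fit took the samples as unpaired.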

Additional observations from a re-analysis of the deposited data

How the results depend on the processing

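The count of genes past the threshold was 0 under each alternative run, in blood and in both organ comparisons. In blood the lowest adjusted p ran from 0.547 (share of detected probes as covariate) to 1, and unadjusted counts from 7 (without IVIg replicate 1) to 521 (no detection filter). With array weights there were 271 unadjusted and with vehicle replicate 3 left out 286. Leaving out single blood arrays gave 0 calls throughout, with unadjusted counts of 7 to 286 in blood, 23 to 372 against liver and 15 to 285 against kidney. With the replicate block the count was 0, with 129 unadjusted and a lowest adjusted p of 0.663. Same-numbered arrays deviated together with correlations of −0.0283, 0.702 and 0.282 for replicates 1, 2 and 3, and vehicle replicate 1 correlated best with IVIg replicate 3 (0.488), so not every array correlates best with its own number.

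The number of lists with a median below 0 was 29, 38 under median scaling and 15 with the detected share as covariate. It was 25 with array weights and 24 with only features detected on all 6 arrays, where the median of all features was 0.079. The number was 23 without both replicates 2 (chosen after seeing the data), and 18 to 30 with 1 array left out, lowest without vehicle replicate 2. Median scaling moved the median of all features by −0.413. Relative to it, 37 of 38 lists kept their sign under each scaling, MHC class II being the exception.

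Of 2064 recomputed log2 differences of 111 named genes 54 changed sign, in 27 genes, none of which had passed. With the detected share as covariate Cd3e was −0.52, Pf4 −0.78, Fcer1g 0, Il1rn 0, Ctsc 0.01, S100a8 0.02, Ngp 0.05, Nfkbia 0.06, Marchf1 0.09, Ms4a6d 0.16, Fcgr2b 0.21, Gata2 0.23, Irf1 0.24, Gbp3 0.26 and Cd14 0.36. Under median scaling H2-Ab1 was −0.01, Gimap6 −0.03, Cd74 −0.05, Cd79a −0.05, Cxcr5 −0.10, Pf4 −0.10, Cd3e −0.12, Satb1 −0.12, Stfa1 −0.12 and Cd8b1 −0.13, all above the median of all features there. With array weights Irf7 was 0.15 and S100a9 0.25. Without both replicates 2 Cd74 was −0.08, Il1rn 0.03, Fcer1g 0.05, Cd14 0.06, Irf1 0.09 and S100a9 0.41. With 1 array left out Cd3e ran from −0.38 to 0.54, Pf4 from −0.43 to 1.09, Irf7 from −0.33 to 0.17, H2-Ab1 from −0.06 to 0.98, Cd74 from −0.10 to 0.99, S100a9 from −0.22 to 0.24, Gata2 from −0.37 to 0.22, Hba-a1 from −0.02 to 0.24, Fcgr4 from −0.15 to 0.88, Irf1 from −0.71 to 0.31, Marchf1 from −0.85 to 0.01, S100a8 from −0.69 to 0.09, Fcer1g from −0.41 to 0.16, Il1rn from −0.55 to 0.16 and Cd14 from −0.50 to 0.34. The cause was not tested. Probes near background limit what could be measured, and IVIg replicate 1 had the lowest share detected, 11.1%.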
